A study of Mus musculus with 6 samples.

Results

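The G protein-coupled receptors that set how much insulin a beta cell releases were examined in pancreatic islets of mice given bisphenol A (BPA). Of 10 receptor genes listed for their role (Glp1r, Gipr, Gcgr, Ffar1, Adra2a, Chrm3, Sstr2, Sstr3, Galr1 and Casr), 8 had probe sets under their symbol in the platform annotation. These 8 genes, of 18193 named genes on the array, were read by 12 of the 45037 probe sets that are not array controls. Galr1 had 3 probe sets, Sstr3 and Casr 2 each, and the other 5 genes 1 each. Ffar1, a receptor for long-chain fatty acids, and Adra2a, the adrenergic receptor through which noradrenaline lowers insulin release, had none under their names and were not analysed here.

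The treated group held 3 islet samples of OF1 male mice, 10 weeks of age, that received BPA, a chemical that binds oestrogen receptors. The control group held 3 islet samples of mice of the same strain, sex and age that received corn oil, the vehicle. The labels differ on the treatment. According to the design text, mice received 100 µg/kg/day under the skin in injections of 50 µg/kg over 4 days, and islets were taken 16 hours after the last one. The treatment protocol of the samples has 2 days instead, while their source names have 1 nM for 48 hours. The samples are called biological replicates, and the number of animals behind each is not stated. If replicates were not separate animals, p-values measure only the spread between these samples.

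Receptors of this kind pass a signal from outside the cell to heterotrimeric G proteins. Those coupled to Gs, such as the receptors for glucagon-like peptide 1, the gastric inhibitory polypeptide and glucagon, activate adenylyl cyclase, and the cyclic AMP formed amplifies insulin release when glucose is high. Those coupled to Gq, such as the muscarinic M3 receptor, activate phospholipase C and release calcium from stores. Those coupled to Gi, such as the receptors for somatostatin and galanin, restrain adenylyl cyclase and granule release.

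Each sample had 1 Affymetrix array with probes near the 3′ end of transcripts, and signals are on the log2 scale, so a difference of 1 is a doubling. Array medians lay between 6.55 and 6.65, and pairs of arrays correlated at 0.976 to 0.993. BPA replicate 3 and control replicate 3 correlated with each other at 0.993, above their correlation with any other array of their own group (0.983 at most for BPA replicate 3 and 0.986 for control replicate 3). Islet hormone genes were bright, with Ins2 at 15.29 in both groups. Genes of exocrine enzymes were bright as well, such as Cela3b at 14.69 in BPA samples and 14.52 in controls. The 3′ minus 5′ signal of the array's Gapdh control, a measure of how complete the labelled RNA was, read 2.58, 2.91 and 2.99 in BPA samples and 3.48, 3.79 and 3.40 in controls. The array's beta-actin control read 2.61, 2.83 and 2.98 in BPA samples and 3.35, 3.80 and 3.68 in controls. The groups overlapped on neither control, and the part of this balance in the values below was not tested. With 3 arrays per group, precision is limited by their number.

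The promoters of 4 receptor genes are shown because they belong to both arms of the control of secretion: Glp1r and Gcgr signal through Gs, and Sstr2 and Sstr3 through Gi. Each line holds the 250 bases before the gene's start in RefSeq (build GRCm38.p6), read 5′ to 3′ on the gene's own strand. Capitals mark the letters TGACG on either strand, the core of the cyclic AMP response element.
Glp1r (chr17:30901617-30901866, plus strand): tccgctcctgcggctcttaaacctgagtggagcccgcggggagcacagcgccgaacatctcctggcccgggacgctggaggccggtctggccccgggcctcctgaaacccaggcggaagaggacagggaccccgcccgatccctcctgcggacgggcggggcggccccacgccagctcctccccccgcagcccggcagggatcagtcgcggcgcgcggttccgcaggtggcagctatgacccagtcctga
Gcgr (chr11:120530477-120530726, plus strand): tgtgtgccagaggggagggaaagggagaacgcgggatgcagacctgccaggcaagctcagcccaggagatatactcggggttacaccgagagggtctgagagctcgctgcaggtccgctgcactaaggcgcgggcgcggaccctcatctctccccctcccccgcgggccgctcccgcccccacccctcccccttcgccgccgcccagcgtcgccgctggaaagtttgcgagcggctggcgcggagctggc
Sstr2 (chr11:113619077-113619326, plus strand): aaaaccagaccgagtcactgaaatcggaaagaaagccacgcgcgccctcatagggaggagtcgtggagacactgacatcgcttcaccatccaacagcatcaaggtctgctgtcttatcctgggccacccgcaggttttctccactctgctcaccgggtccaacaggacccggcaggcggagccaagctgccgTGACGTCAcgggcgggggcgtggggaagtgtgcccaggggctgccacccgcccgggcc
Sstr3, first of 2 listed starts (chr15:78544346-78544595, minus strand): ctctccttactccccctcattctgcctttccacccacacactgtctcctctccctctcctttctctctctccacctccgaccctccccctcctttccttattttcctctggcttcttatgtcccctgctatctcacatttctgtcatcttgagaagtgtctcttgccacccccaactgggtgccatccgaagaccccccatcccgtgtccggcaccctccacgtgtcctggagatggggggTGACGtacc
TGACG on either strand occurred in 17.8% of 32851 such windows over all genes. In Sstr2 it occurred on both strands in overlap, as the 8-letter palindrome TGACGTCA whose first base lies at -58 from the start, and 1.55% of windows hold that palindrome. In Sstr3 it began at -9 of the first start, while the window of the other listed start had 0 matches. The windows of Glp1r, Gcgr, Chrm3 and Casr had 0 matches each. These matches are letters in a window, and nothing about binding was measured.

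Of the receptors that signal through Gs, Glp1r varied most in treated islets. Glp1r encodes the receptor for glucagon-like peptide 1, the gut hormone that amplifies glucose-driven insulin release. Its log2 signal (probe set 1422330_at) was 7.89, 8.44 and 7.30 in BPA replicates 1, 2 and 3, against 8.03, 7.96 and 7.96 in control replicates 1, 2 and 3. The BPA arrays lay on both sides of the controls, which spanned 0.076 where the BPA arrays spanned 1.14. The means were 7.88 ± 0.57 after BPA and 7.98 ± 0.043 in controls (SD, n = 3 each), a difference of -0.11 ± 0.27 (SE). This spread was not compared between the groups by a test. In bulk islet RNA, fewer cells of a type and less RNA per cell cannot be told apart.

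Gipr encodes the receptor for the other incretin, the gastric inhibitory polypeptide. It read 7.02, 7.13 and 6.93 in BPA samples, against 6.95, 6.81 and 6.97 in controls. Its 6 arrays spanned 0.32, the narrowest range of the 12 probe sets, and the groups overlapped. The difference was 0.12 ± 0.11 (log2, SE), with a 95% interval from -0.15 to 0.38. Gcgr encodes the glucagon receptor, through which alpha cell hormone can raise cyclic AMP in beta cells. Gcgr read 9.35, 9.54 and 9.97 in BPA samples, against 9.20, 9.63 and 9.88 in controls. Within each group replicate 1 was the lowest and replicate 3 the highest, and the groups covered nearly the same span. Mean signals were 9.62 ± 0.32 with BPA and 9.57 ± 0.34 in control arrays (SD, n = 3 each), and differed by 0.054 ± 0.228 (SE).

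Chrm3, the muscarinic M3 receptor that answers acetylcholine from nerves, was dim. Its probe set read 4.81, 5.0 and 4.64 in BPA samples, against 4.96, 4.93 and 4.68 in controls. The deposited values carry no detection calls, so whether a signal this low stands above background was not tested. The groups overlapped, with a difference of -0.039 ± 0.125 (log2, SE).

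Casr, the calcium-sensing receptor, couples to Gq and Gi and is best known for the control of parathyroid hormone. Its probe sets gave different pictures. The brighter one (1449881_a_at) read 8.85, 9.33 and 9.01 after BPA, against 9.27, 9.05 and 9.18 in controls. BPA samples held both the highest and the lowest value, and the difference was -0.10 ± 0.16 (log2, SE). The dimmer one (1449882_a_at) read 6.04, 6.27 and 5.72 after BPA, against 5.46, 5.37 and 6.03 in controls. There BPA replicate 2 and, by a thin margin over control replicate 3, BPA replicate 1 lay above all controls, and BPA replicate 3 lay within the control range. Its difference of 0.39 ± 0.21 (log2, SE), or 1.31 times the control signal with an interval of 0.92 to 1.85, was the largest in size among the receptor probe sets.

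Of the inhibitory receptors, Sstr2 and Sstr3 answer somatostatin, the delta cell hormone that restrains its neighbours. Sstr2 read 7.701, 7.253 and 7.208 in BPA samples, against 7.504, 7.545 and 6.694 in controls. Control replicate 3 was the lowest array by 0.51, and the other controls lay inside the BPA range. Mean signals were 7.39 ± 0.27 with BPA and 7.25 ± 0.48 in control arrays (SD, n = 3 each), and differed by 0.14 ± 0.26 (SE).

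The brighter probe set of Sstr3 (1441603_at) read 9.81, 10.60 and 10.72 after BPA, against 10.04, 10.71 and 10.47 in controls. Replicate 1 was the lowest of each group, and the difference was -0.026 ± 0.279 (log2, SE). The dimmer one (1450577_at) read 6.91, 7.04 and 6.96 after BPA, against 6.30, 6.80 and 6.98 in controls. Here the BPA arrays lay close together, with an SD of 0.066 against 0.35 in controls, and control replicate 3 lay among them. The difference was 0.28 ± 0.18 (log2, SE), so the probe sets of Sstr3 differed in sign.

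Galr1 encodes a receptor for galanin, a neuropeptide that lowers insulin release. Its brightest probe set (1441329_at) read 8.98, 9.13 and 8.15 after BPA, against 9.06, 8.75 and 8.33 in controls. Replicate 3 was the lowest of each group, and the difference was 0.037 ± 0.297 (log2, SE). The probe set 1427704_a_at read 6.98, 6.69 and 6.18 after BPA, against 6.62, 6.04 and 6.26 in controls. BPA replicates 1 and 2 lay above the controls and BPA replicate 3 below the highest of them. The dimmest one (1450568_at) read 5.15, 4.96 and 4.90 after BPA, against 4.87, 4.91 and 4.58 in controls. It was the only receptor probe set with a higher value after BPA for each of the 3 replicate numbers, yet BPA replicate 3 lay below control replicate 2. The differences of these probe sets were 0.31 ± 0.24 and 0.21 ± 0.12 (log2, SE).

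**Figure D1:**
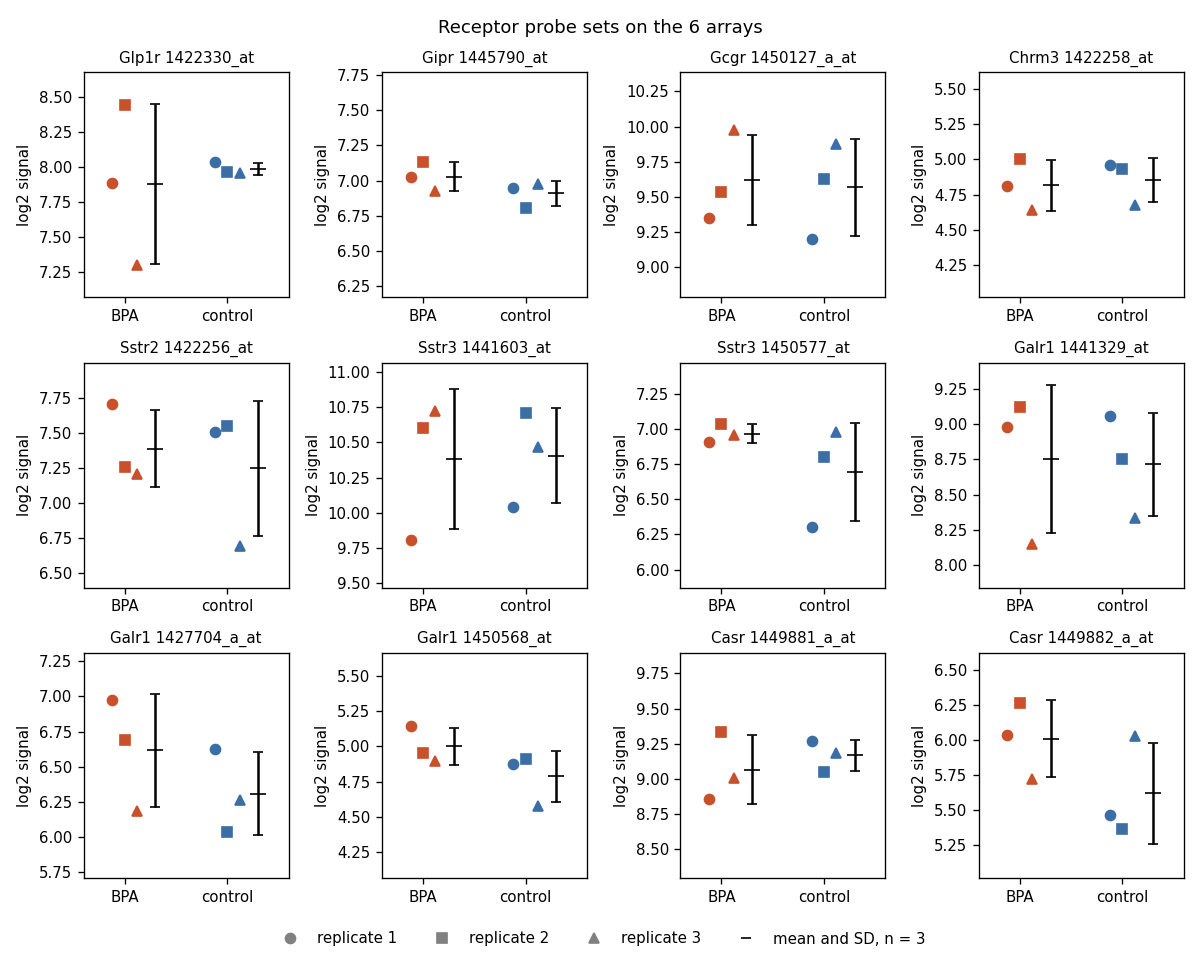
Log2 signal of the 12 receptor probe sets, BPA arrays on the left and control arrays on the right of each panel; marker shapes give the replicate number, and bars the mean and SD of 3 arrays. Every panel spans 1.6 log2 units, and in all 12 the groups overlap.

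The comparison of BPA with control asks whether short treatment, in vivo according to the series' title, changed the receptors' transcripts. None of the 12 probe sets passed the test. In limma's moderated test, adjusted over all 45037 probe sets, 0 of 12 had an adjusted p under 0.05 (0% of all probe sets did), and their adjusted p lay between 0.865 and 0.991. At an unadjusted p under 0.05 there were 0 of 12, where 5.87% of all probe sets passed. The groups were free of overlap in 0 of 12 probe sets, against 11.5% of all.

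Of the 12 differences 8 were above 0 and 4 below, with a median of 0.086, where 54.9% of all probe sets were above 0 and their median was 0.018. The 12 stem from 8 genes and are not independent. The 95% intervals reached from -0.74 (Glp1r) to 0.89 (the dimmer Casr probe set). All 12 intervals of the main fit lay within a difference of 1 in either direction. Under that fit, a doubling or halving of the mean signal thus lay outside each, taken alone. The intervals rest on limma's moderated SE and on a common spread for both groups. For Glp1r the SD was 0.57 after BPA and 0.043 in controls, and intervals with a separate spread per group were not computed. For 4 probe sets, those of Gipr and Chrm3, the dimmest of Galr1 and the brighter of Casr, the interval also lay within 0.5. The probe sets of Chrm3 and Galr1 among these were dim, with means of 4.83 and 4.89. Whether they stand above background was not tested, so their narrow intervals may not bound a change in the transcript. A p that misses the threshold does not show that the groups were alike.

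**Figure D2:**
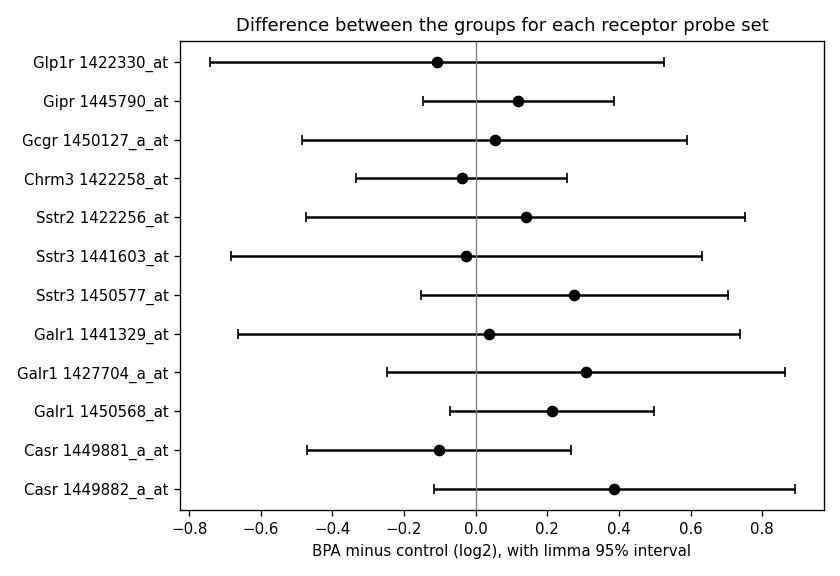
Difference between BPA and control (log2) for each receptor probe set, with the 95% interval of limma's fit over 3 arrays per group. Every interval includes 0, and they reach from -0.74 to 0.89.

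Where a gene had several probe sets, their mean was also fitted over all genes. Galr1 then differed by 0.19 ± 0.19, Sstr3 by 0.12 ± 0.20 and Casr by 0.14 ± 0.15 (log2, SE), with adjusted p of 0.897, 0.936 and 0.902. For Sstr3 and Casr the sign of this mean opposes that of the brighter probe set.

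Single arrays set the sign of most of these differences. With each array left out in turn, 7 of the 12 changed sign at least once, and 5 stayed above 0: Gipr, the dimmer probe set of Sstr3, the dimmer probe set of Casr and both dimmer ones of Galr1. Glp1r ran from -0.39 without BPA replicate 2 to 0.18 without BPA replicate 3. The dimmer Casr probe set differed by 0.59 ± 0.17 (log2, SE) without control replicate 3, with no overlap between groups. In that fit 2 of the 12 had no overlap, this one and the dimmer of Sstr3, against 22.1% of all probe sets. Without BPA replicate 3, 4 of the 12 had no overlap, against 29.8% of all. With both replicate 3 arrays left out the dimmer Casr probe set differed by 0.74 ± 0.14 (adjusted p = 0.238), the smallest adjusted p of a receptor in any fit. In that fit of 2 against 2 arrays 5 of the 12 had no overlap between groups, against 41.8% of all probe sets, and 10.9% of all had an unadjusted p under 0.05.

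**Figure D3:**
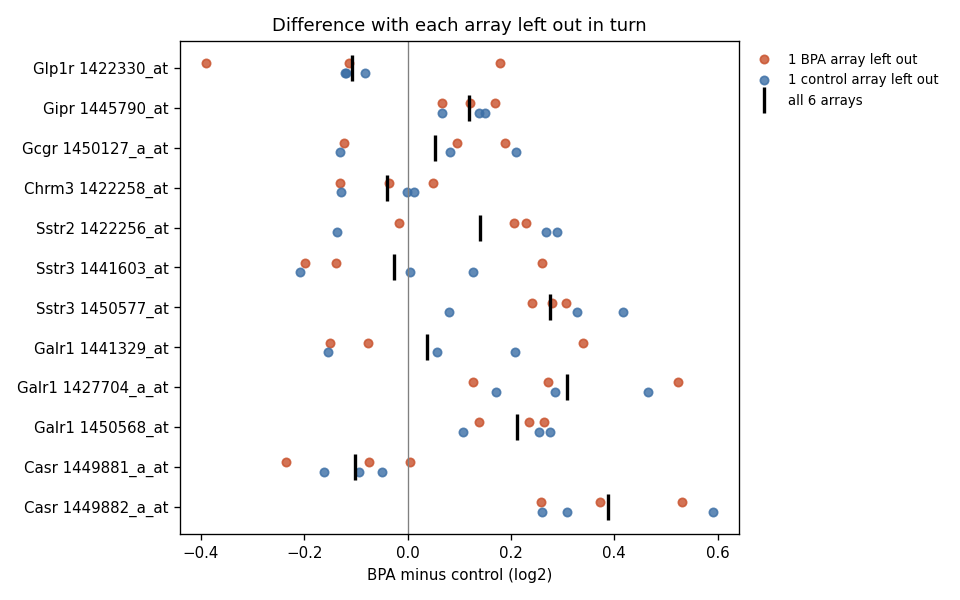
Difference between BPA and control (log2) with all 6 arrays (black bar) and with each BPA or control array left out in turn (points). For 7 probe sets the points lie on both sides of 0, and the points of Glp1r run from -0.39 to 0.18.

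For 11 of 12 probe sets the range within controls was larger than the difference between the groups, the exception being Glp1r. The share over all probe sets was not counted, so this does not set the receptors apart. Within groups, 11 of 12 probe sets had a residual SD above the median of all probe sets (0.16), the exception being Gipr at 0.096. The replicate 3 arrays were the lowest of both groups in 5 probe sets, those of Glp1r, Chrm3 and Sstr2 and 2 of Galr1, though for Glp1r the controls were nearly level. They were the highest of both groups in Gcgr. Over all probe sets, the deviations of the replicate 3 arrays from their group means correlated at 0.642. The share of all probe sets with replicate 3 lowest or highest in both groups was not counted. Across the 6 arrays Galr1 (1441329_at) spanned 0.98, Sstr2 spanned 1.01 and Glp1r spanned 1.14.

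Islets come with exocrine tissue and with vessel, nerve, connective and immune cells, whose markers also varied between arrays. The 10 measured acinar cell markers, relative to their mean over the 6 arrays, averaged 0.85, 0.031 and -0.49 in BPA replicates 1 to 3, and 0.27, 0.53 and -1.19 in control replicates 1 to 3. The order of the arrays in this list was that of Sstr2, with BPA replicate 1 at the top and control replicate 3 at the bottom. Over 10 marker lists and 12 probe sets, 3 of 120 pairs had the same order of arrays, the others being beta cell markers with the brighter Casr probe set and nerve and glia markers with the dimmest of Galr1. How often other probe sets follow the order of a list was not counted, so these matches do not set the receptors apart. The 7 measured beta cell markers averaged -0.058, 0.078 and -0.048 in BPA samples and 0.032, -0.0064 and 0.0029 in controls. The 5 measured alpha cell markers averaged -0.078, -0.0014 and -0.083 after BPA and 0.065, 0.090 and 0.0073 in controls. The groups did not overlap in this list, at a difference of -0.11. Markers of stellate cells and fibroblasts averaged 0.62, -0.13 and 0.13 after BPA and -0.060, -0.13 and -0.43 in controls, and immune cell markers 0.70, -0.092 and -0.014 after BPA and 0.022, -0.18 and -0.43 in controls. The 2 measured PP cell markers, Ppy and Pyy, averaged -0.11, 0.25 and 0.46 after BPA and -0.22, -0.17 and -0.22 in controls, with no overlap between the groups and a difference of 0.40. The delta, duct and endothelial cell lists differed by -0.11, 0.048 and -0.0018. The delta cell list includes Ghsr, a dim probe set that differed by -0.63. Of its other members Sst and Rbp4 had higher means after BPA, and Hhex and Rgs2 lower ones. The lists of stellate cells and of immune cells were highest in BPA replicate 1, as was the signal of Sstr2 and of the 2 dimmer Galr1 probe sets. Not all their members were: Col1a1, Acta2 and Pdgfrb were highest in BPA replicate 3, and C1qb in control replicate 1. Fn1, in the stellate list, read 11.14 in BPA replicate 1 and 8.46 or less on every other array. The part of other cells in the receptors' values was not tested.

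**Figure D4:**
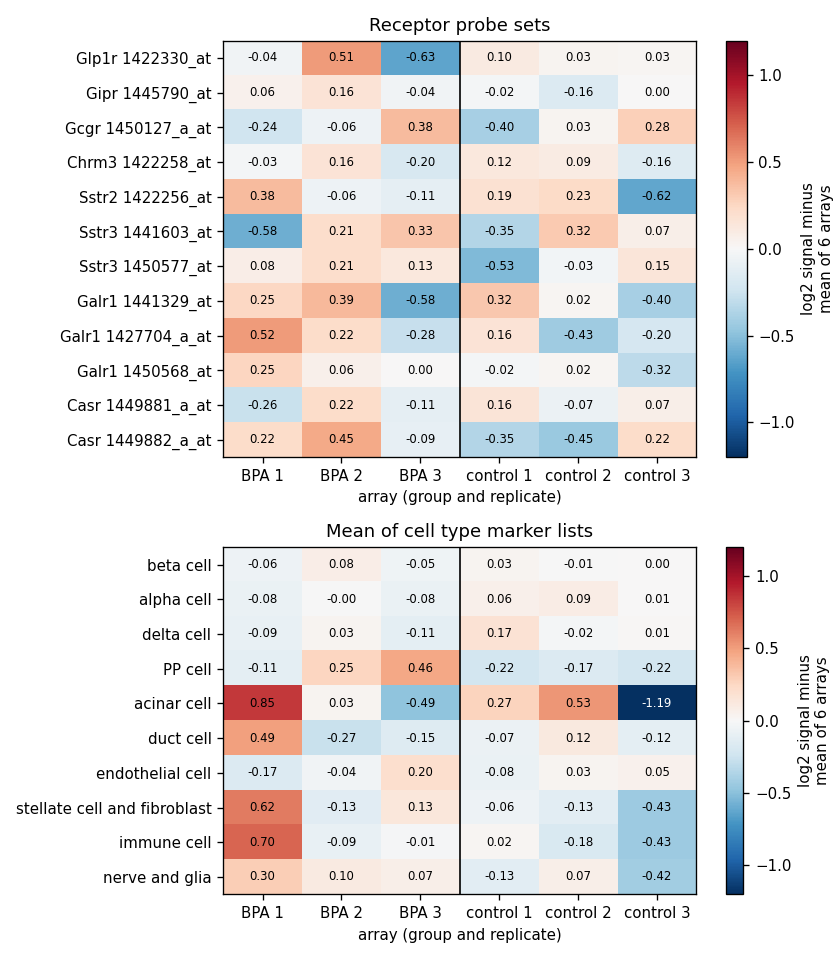
Log2 signal on each of the 6 arrays minus the mean of the 6, for the 12 receptor probe sets (top) and for the mean of each list of cell type markers (bottom); BPA arrays stand left of the line and control arrays right of it. Acinar cell markers run from 0.85 in BPA replicate 1 to -1.19 in control replicate 3, the arrays where Sstr2 was highest and lowest.

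Genes whose pattern over the 6 arrays was most like that of the widest-ranging receptors were found by the root mean square difference of centred log2 values, among 11786 genes. For Glp1r these were Dach1, a transcription cofactor gene, at 0.052, and Golim4, which encodes a Golgi membrane protein, at 0.077, where Glp1r itself lay 0.33 around its mean. For Sstr2 they were Parm1 (0.052) and Adamtsl3 (0.067), and for Galr1 they were Ctbs (0.070) and Epb41l4a (0.081). Dach1 read 8.52, 9.08 and 7.99 in BPA samples, against 8.80, 8.62 and 8.70 in controls. It thus had the wide BPA span and the narrow control span of Glp1r. With 6 arrays and so many genes, close matches are found for many patterns.

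The genes around the receptors were grouped into 11 lists of other receptors, ligands, G proteins and effectors. Of 172 genes 151 were measured, and 0 passed the test in either direction (limma, adjusted over all probe sets). At an unadjusted p under 0.05 there were 9 (5.96%), where 4.94% of 18193 genes passed on their brightest probe set. Of the 151, 89 (58.9%) were above 0 and 62 below, with a median of 0.038. Over all genes 60.3% were above 0, with a median of 0.036, and the counts of each list below stand against that share. The genes named below had the smallest p of their list, a choice that favours groups free of overlap. Of all probe sets 11.5% were free of overlap.

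Among other receptors of the same families, Adcyap1r1, the receptor for the neuropeptide PACAP that acts through Gs, read 8.19, 8.32 and 8.44 in BPA samples, against 8.02, 7.88 and 7.59 in controls. All BPA arrays lay above all controls, by 0.49 ± 0.15 on average (log2, SE, adjusted p = 0.825). Its other probe sets differed by 0.11 and -0.019. Crhr1, a receptor for corticotropin-releasing hormone, differed by 0.40 ± 0.19 with overlapping groups, and by 0.37 ± 0.16 on its other probe set (adjusted p = 0.852 for each). Of the class B and lipid receptors 6 of 8 were above 0 (median 0.085). Of the muscarinic and adrenergic ones 4 of 4 were above 0 (median 0.072), with Chrm1 at 0.14 ± 0.13 (0.0099 on its other probe set) and Chrm4 at 0.098 ± 0.154. Of the somatostatin, galanin and calcium-sensing relatives 4 of 5 were above 0 (median 0.051). Sstr5, another somatostatin receptor, differed by 0.10 ± 0.13, and the galanin receptor gene Galr2 by -0.16 ± 0.17.

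Of 22 other receptors of the islet 13 were above 0 and 9 below (median 0.062). Htr2b, a serotonin receptor coupled to Gq, read 5.36, 5.64 and 5.55 in BPA samples, against 5.07, 5.05 and 5.26 in controls. The groups did not overlap, at a difference of 0.39 ± 0.11 (log2, SE, adjusted p = 0.825) on a dim probe set. Ghsr, the ghrelin receptor of delta cells, read 4.54, 4.16 and 4.34 after BPA, against 5.51, 4.91 and 4.51 in controls. It was dim too, with a difference of -0.63 ± 0.24 (adjusted p = 0.838), and control replicate 3 lay below BPA replicate 1.

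Of 12 genes of ligands, or of the enzymes and transporter that make and load transmitters, 7 were above 0 and 5 below (median 0.050). Th, tyrosine hydroxylase, makes the precursor of noradrenaline, the Adra2a ligand, and it is also expressed by some beta cells. It read 10.59, 10.59 and 10.06 in BPA samples, against 9.42, 9.78 and 9.81 in controls. The groups did not overlap, at a difference of 0.74 ± 0.19 (log2, SE, adjusted p = 0.808), and the nerve and glia markers, a list that includes Th, averaged 0.30, 0.10 and 0.072 in BPA samples and -0.13, 0.072 and -0.42 in controls. Slc18a3, the vesicular acetylcholine transporter, differed by 0.34 ± 0.12 without overlap on a dim probe set (adjusted p = 0.837).

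Of the G protein alpha subunits 5 were above 0 and 7 below (median -0.011). Gnas, which encodes the alpha subunit of Gs shared by the incretin and glucagon receptors, read 13.78, 13.94 and 13.72 in BPA samples, against 13.95, 14.02 and 13.95 in controls. All BPA arrays lay below all controls, by a difference of -0.16 ± 0.08 (log2, SE, adjusted p = 0.853). The other 4 probe sets of Gnas lay between -0.53 and 0.060. Gna12, the alpha subunit of G12, differed by 0.34 ± 0.16 without overlap (adjusted p = 0.852), and its other probe sets by 0.30, 0.25, 0.19 and -0.051. Of 13 beta and gamma subunits 10 were above 0 (median 0.059), with Gnb4 at 0.32 ± 0.12 and Gng4 at -0.15 ± 0.12. Other probe sets of both genes differed: those of Gnb4 by 0.0072 and -0.048, and those of Gng4 by 0.16 and 0.21.

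Of 21 adenylyl cyclases and phosphodiesterases, which make and break down cyclic AMP, 12 were above 0 and 9 below (median 0.053). Those with the smallest p were Pde10a at 0.29 ± 0.17 and Adcy4 at 0.16 ± 0.11 (log2, SE), both with overlapping groups, and the other 4 probe sets of Pde10a lay between -0.12 and 0.15. Of 18 cyclic AMP effectors 8 were above 0 and 10 below (median -0.021). Creb1, the transcription factor that binds the cyclic AMP response element, read 10.92, 10.82 and 10.71 in BPA samples, against 11.03, 11.10 and 10.93 in controls, a difference of -0.20 ± 0.11 (adjusted p = 0.858). All BPA arrays lay below all controls, though the other probe sets of Creb1 lay between -0.10 and 0.070. Its coactivator gene Crtc2 differed by 0.41 ± 0.16 without overlap (adjusted p = 0.838), and by 0.13 on its other probe set.

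Of 17 phospholipase C and protein kinase C pathway genes 10 were above 0 and 7 below (median 0.019). Dgka, a kinase that removes the second messenger diacylglycerol, differed by -0.33 ± 0.13 without overlap (log2, SE, adjusted p = 0.838), and Plcb2 by 0.13 ± 0.11. In the list of receptor kinases, arrestins, RGS proteins and receptor activity-modifying proteins 10 of 19 were above 0 (median 0.016). Receptor activity-modifying proteins accompany class B receptors, and Ramp3 differed by 0.36 ± 0.15 and Ramp2 by 0.27 ± 0.14 (adjusted p = 0.843 and 0.853). Ramp3 read 9.25, 9.28 and 9.45 in BPA samples, against 8.87, 8.80 and 9.23 in controls, with no overlap.

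**Figure D5:**
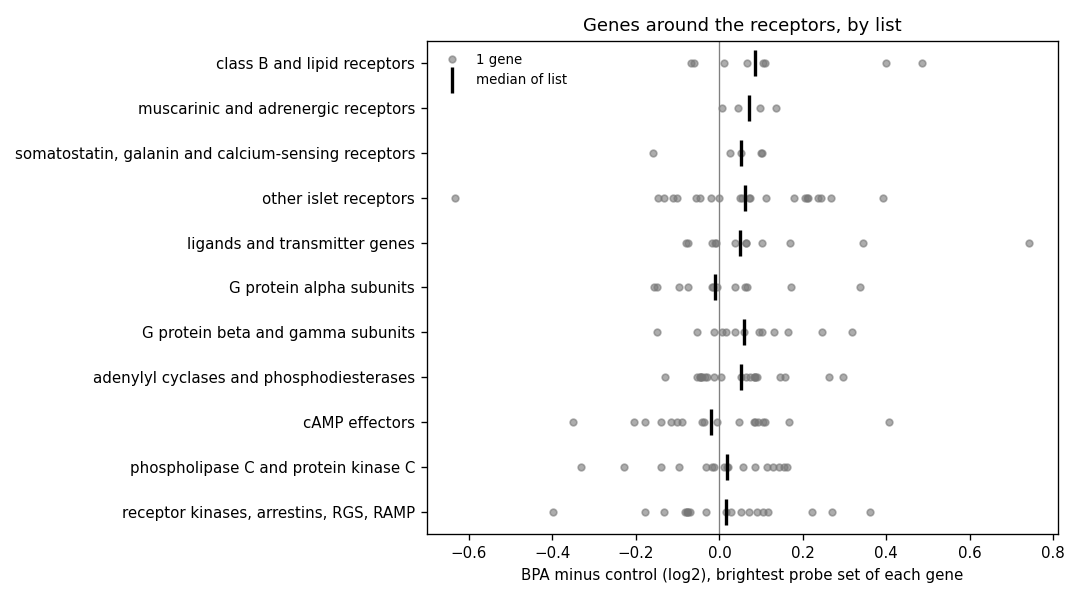
Difference between BPA and control (log2) for the brightest probe set of each gene around the receptors (grey points), by list, with each list's median (black bar). Medians lie between -0.021 and 0.085, and Th (0.74) and Ghsr (-0.63) lie farthest from 0.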

How the data were processed

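Islet RNA of 3 BPA and 3 control samples was measured on 6 Affymetrix arrays, with groups and replicate numbers from the sample titles. The authors deposited 1 log2 signal per probe set and array. Per the submitters' processing notes the tool was MAS5, with no version, and the summary method and scaling are otherwise not given in the sources used here. Values were used as deposited. The table held 45101 probe sets, 64 of them array controls that were left out; of the rest, 34945 had 1 gene in the platform annotation, 932 several and 9160 none.

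The groups were compared with limma (version 3.58.1, R 4.3.3), using lmFit and eBayes with an intensity trend, two-sided p-values adjusted by Benjamini-Hochberg over all 45037 probe sets and a threshold of 0.05, with no filter, so that dim receptors were included. Of the 12 receptor probe sets 8 lay above the median signal of all (6.60). For lists and likeness, a gene was represented by its probe set with the highest mean. Named genes were the receptors, genes of each list past the test or else the 2 with the smallest p, and the 2 genes most like each of the 3 widest-ranging bright receptors. The members and lists were chosen with earlier results of these data known. The fitting code was checked on simulated data with independent noise and known changes. That simulation lacked the likeness of same-numbered arrays, and no rate of found or false calls is drawn from it. Alternatives were filters, scalings, eBayes options, a replicate block, each array left out, both replicate 3 arrays left out, and gene means. Figures were drawn with matplotlib 3.10.9 in Python 3.11.15.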

Additional observations from a re-analysis of the deposited data

How the results depend on the processing

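Counts of receptor, list and all probe sets past the adjusted threshold in limma were 0 under each of 15 alternatives. These were fitted to all probe sets or, for the filters, to the brighter ones. The smallest adjusted p of any probe set in any of them was 0.231. Without adjustment and without a filter, 1787 to 5132 probe sets had a p under 0.05, against 2643 in the main fit. The filters tested fewer probe sets, so their counts of 1458 (above the median) and 789 (above the 75th percentile) have another base. Scaling, filters and eBayes options turned the sign of 0 named values. Leaving out 1 array gave ranges of -0.39 to 0.18 for Glp1r, -0.13 to 0.21 for Gcgr, -0.13 to 0.049 for Chrm3, -0.14 to 0.29 for Sstr2, -0.21 to 0.26 for Sstr3 1441603_at, -0.15 to 0.34 for Galr1 1441329_at and -0.24 to 0.0041 for Casr 1449881_a_at. With both replicate 3 arrays left out, Glp1r turned to 0.17, Sstr2 to -0.047 and Chrm4 to -0.058. The mean over probe sets turned Sstr3 to 0.12 and Casr to 0.14. Receptor probe sets without overlap numbered 0 to 4 of 12 with 1 array left out, where 18.4% to 29.8% of all probe sets had none, and 5 of 12 with both replicate 3 arrays left out, where 41.8% had none.

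The replicate number as a block left the count of calls at 0 for all probe sets, the receptors and the lists, with 4892 probe sets at an unadjusted p under 0.05. Deviations of same-numbered arrays correlated at 0.397, 0.0664 and 0.642 for numbers 1, 2 and 3, so the pairing by number was not taken as given; BPA replicate 2 correlated better with control replicate 1 than with its own number. Dim probe sets have no detection call, which limits Chrm3 and the dimmer probe sets of Galr1 and Casr.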
